A study of Mus musculus with 29 samples.

Results

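The binding sites of the glucocorticoid receptor (GR) and of C/EBPβ were compared in livers of wild-type (WT) mice after prednisolone, a synthetic glucocorticoid. The ChIP-seq lists of that condition held 4304 GR peaks and 21941 C/EBPβ peaks, together 26245 of the 107997 peaks in the 9 ChIP-seq lists of the study. All peaks of both lists were taken, and the GR peaks were divided by whether a C/EBPβ peak of the same livers overlapped them. The matching GR ChIP-exo list, with 49189 borders from a library of 54.7 M tags, was read at the same peaks. The animals were GR+/+ males of 12 weeks, litter-mates of GRdim mice and back-crossed to BALB/c for at least 4 generations, kept on a 12 h light cycle. They carried subcutaneous prednisolone pellets at 12 mg/kg for 24 h, and livers were collected at 6am, when the light phase began. Untreated WT livers of 6am and of 6pm, when the dark phase began, served for comparison, and the GRdim livers treated in the same way were used for the listing of GR peaks and for borders. GRdim is a receptor mutation known to impair GR dimerization. GR was precipitated with a pair of antibodies (PA1-511A and sc-1004) and C/EBPβ with 1 (sc-150).

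GR is a nuclear receptor that, once it has bound a glucocorticoid, enters the nucleus and binds DNA, classically as a dimer on a palindromic element. C/EBPβ is a basic leucine zipper factor abundant in hepatocytes, where it takes part in the control of gluconeogenesis and the acute phase response, and its sites are known to be frequent near GR sites in liver chromatin. In ChIP-exo an exonuclease trims the precipitated DNA from each 5′ end until it meets crosslinked protein, so a plus-strand and a minus-strand border mark the edges of a bound stretch.

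Each list came from 1 pool of 2 replicates, so the spread between replicates is unknown and the comparisons carry no p-value. The 95% intervals cover only the counting of peaks, which are not replicates of a condition. Every ChIP-seq peak was 200 bp wide and carried a score given by the authors in a unit that the sources used here do not state, so scores served only to rank, filter or describe peaks within a list. No score lay below 2, so a peak that is missing from a list may be a weak one. How deeply the ChIP-seq libraries were sequenced is unknown, and the WT ChIP-exo libraries held 43.1 to 55.7 M tags.

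Most GR peaks lay on a C/EBPβ peak, while few C/EBPβ peaks lay on a GR peak. Of the 4304 GR peaks, 3256 overlapped a C/EBPβ peak by at least 1 bp (75.7%, Wilson 95% interval 74.3 to 76.9). These pairs were 1 to 1, and they made up 14.8% (14.4 to 15.3) of the 21941 C/EBPβ peaks. The other 1048 GR peaks had no overlapping C/EBPβ peak. Those shares, 75.7% and 14.8%, are the background against which the classes of peaks below are read.

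Where both factors were listed, their centres were close. The centres of the 3256 pairs lay a median of 28 bp apart, with quartiles of 12 and 52 bp and a 90th percentile of 86 bp. They lay within 10 bp in 706 pairs (21.7%), within 25 bp in 1524 pairs (46.8%, 45.1 to 48.5), and within 50 bp in 2394 pairs (73.5%, 72.0 to 75.01). In 30 pairs both centres were at the same base, and the C/EBPβ centre was at the higher coordinate in 50.3% of pairs. Overlap allows centres up to 199 bp apart, and most pairs filled only the near end of that range, on either side in about equal number.

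The number of pairs fell steeply with distance. From 2394 pairs with centres 0 to 50 bp apart, it fell to 638 at 51 to 100 bp, 157 at 101 to 150 bp and 69 at 151 to 200 bp. Between 201 and 350 bp each step of 50 bp held 29 to 37 pairs, and between 351 and 1000 bp each held 53 to 81. The range from 200 to 349 bp, just beyond overlap, thus held 98 pairs and the equally wide range from 850 to 999 bp held 167. Within either list no centres lay closer together than 318 bp, a spacing whose part in this dip was not tested. The border between overlap and no overlap fell in a thin stretch of the distribution: 9 pairs had centres 190 to 199 bp apart and 8 had centres 200 to 209 bp apart.

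**Figure D1:**
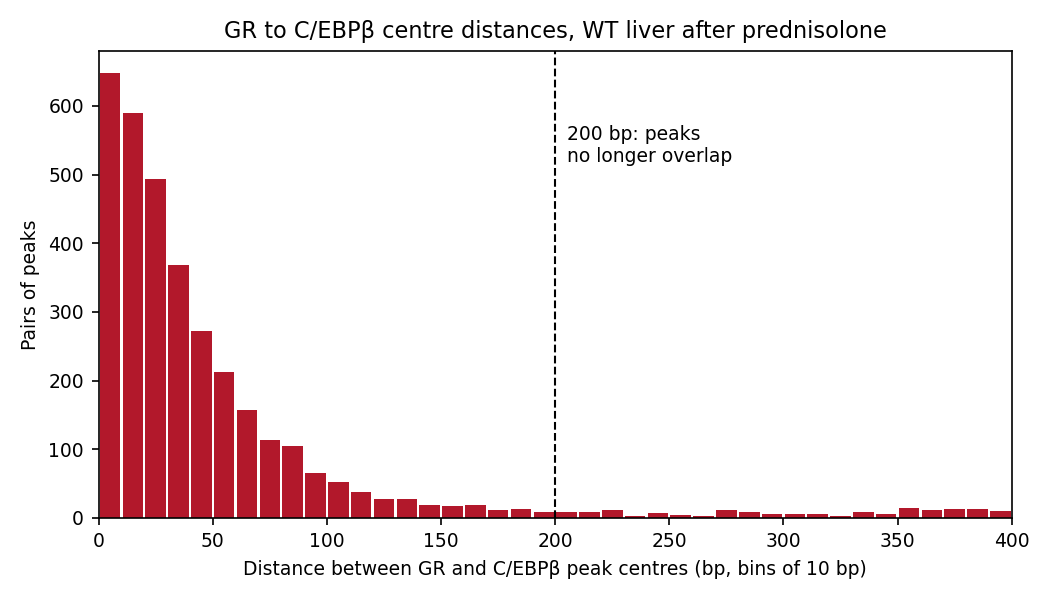
Number of GR and C/EBPβ peak pairs (y axis) by the distance between their centres in bins of 10 bp (x axis, 0 to 400 bp), WT liver after prednisolone. The dashed line at 200 bp marks where peaks no longer overlap. Most pairs lie to the left of 50 bp (2394 pairs within 50 bp), and few lie on either side of the dashed line.

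The untreated livers gave centre distances of the same order. The median was 30 bp at 6am and 24 bp at 6pm. Centres lay within 25 bp in 44.3% of the pairs at 6am, 2.52 points less often than after prednisolone (Newcombe interval of prednisolone minus 6am 0.289 to 4.76). At 6pm they did so in 52.6%, and prednisolone minus 6pm was -5.78 points (-7.71 to -3.84). Pairs were thus closer at 6pm than after prednisolone by more than the counting interval, and slightly wider at 6am.

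GR peaks without an overlapping C/EBPβ peak were mostly far from one. The nearest C/EBPβ centre was a median of 3597 bp away, with quartiles of 961 and 14961 bp. It lay within 500 bp for 153 of the 1048 peaks (14.6%, 12.6 to 16.9), within 1000 bp for 267 (25.5%, 22.9 to 28.2) and beyond 10000 bp for 315 (30.1%, 27.4 to 32.9). Near misses at the edge of the 200 bp intervals therefore accounted for a minority of these peaks. The lists of the untreated livers were also read at them, since a weak C/EBPβ peak may be listed in one condition and missed in another. A C/EBPβ peak of 6am overlapped 25.5% of the GR peaks without C/EBPβ after prednisolone and a peak of 6pm overlapped 37.7%, while 628 (59.9%, 56.9 to 62.8) had none in either list. Among the 3256 GR peaks with C/EBPβ after prednisolone, 213 (6.54%, 5.74 to 7.44) had none at 6am or 6pm.

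GR peaks with and without C/EBPβ also differed in where else GR was listed. A GR peak of untreated 6am livers was found at 77.4% of the GR peaks with C/EBPβ and at 64.2% of those without (difference 13.2 points, 9.98 to 16.4). For GR at 6pm the shares were 93.1% and 74.8% (18.2 points, 15.6 to 21.1). For GR in the prednisolone-treated GRdim livers they were 55.8% and 25.9% (29.9 points, 26.7 to 33.0). In each of these 3 lists GR was found more often at the regions that held C/EBPβ.

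The 5 highest GR peaks with a partner had C/EBPβ peaks that ranked from 6 to 14554. The highest GR score, 25.41, was given to the peak at chr2:167670164-167670363 (mm9, as are all positions here, counted from 1). Its C/EBPβ peak, 49 bp away between centres, scored 2.94 and ranked 14554 of 21941. The second GR peak, at chr7:71041852-71042051, also scored 25.41, and its C/EBPβ peak, 34 bp away, scored 17.63 and ranked 6. The next GR peaks in rank with a partner lay at chr16:93335679-93335878, at chr1:74061273-74061472 and at chr16:25059390-25059589. Their GR scores were 21.13, 20.98 and 20.53, and their C/EBPβ peaks ranked 5179, 7763 and 8208. All 5 regions were GR peaks at 6am and at 6pm too. The first of the regions on chromosome 16 had no C/EBPβ peak at 6am, and the other 4 had one in all 3 conditions.

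The 5 highest C/EBPβ peaks with a GR partner had GR peaks that ranked from 378 to 2463 of 4304. The first, at chr14:76193036-76193235, scored 19.10, and its GR peak 6 bp away scored 7.13 and ranked 378. The second, at chr17:84235508-84235707, also scored 19.10 and had a GR peak of rank 1051. The other 3 lay at chr4:63005400-63005599, at chr17:26708411-26708610 and at chr10:93560920-93561119, and their GR peaks ranked 1210, 989 and 2463. Each of these 5 regions held a C/EBPβ peak in both untreated lists, with scores of 14.99 to 22.83, and a GR peak at 6pm. Their GR scores were 2.74 to 7.13 after prednisolone, and the region on chromosome 4 had no GR peak at 6am. The share of all C/EBPβ peaks found in both untreated lists is not given here, so that listing is not read as particular to these regions.

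Pairs with the largest gaps in rank showed that either factor could be near the lowest listed score where the other was high. At chr13:75936408-75936607 GR scored 9.76 (rank 201) beside a C/EBPβ peak of 2.01 (rank 21663). At chr6:6192151-6192350 GR scored 9.61 (rank 214) beside a C/EBPβ peak of 2.12 (rank 20777), and neither factor was listed there at 6am or 6pm. At chr11:51729612-51729811 GR scored 14.15 beside a C/EBPβ peak of 2.19, and C/EBPβ was listed at neither untreated time. Conversely, the region at chr15:59484389-59484588 held a GR peak of 2.03 (rank 4229) and a C/EBPβ peak of 13.75 (rank 112) with centres 5 bp apart. The other 2 of this kind lay at chr8:34966283-34966482 and at chr1:195137897-195138096, with GR scores of 2.03 beside C/EBPβ scores of 13.14 and 11.85. The GR ChIP-exo list had 0, 1 and 5 borders at these 3 regions, against 9, 15 and 18 at the regions with high GR on chromosomes 13, 6 and 11.

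Over all pairs the ranks of the scores were nearly unrelated. Spearman's rho between the GR and C/EBPβ scores was 0.0773 over the 3256 pairs, given as a description with no p, since the pairs share their libraries and depth. It was 0.128 over 4609 pairs at 6am and 0.366 over 11874 pairs at 6pm. With lists of equal length in the 3 conditions (the 4304 highest GR and 21644 highest C/EBPβ peaks) it was 0.0781, 0.107 and 0.194. In the higher-scoring 50% of each prednisolone list rho was -0.0162. The order of the conditions was the same at equal length, and the gap to 6pm was smaller with both lists cut in length.

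To compare the same regions, the 2407 GR regions at which both factors were listed in all 3 WT conditions were read in each. There rho between the scores of GR and C/EBPβ of 1 condition was 0.166 after prednisolone, 0.0105 at 6am and 0.199 at 6pm. The scores of 1 factor were far more alike between conditions: rho of GR with itself was 0.631 to 0.800, and that of C/EBPβ with itself 0.880 to 0.937. At these regions prednisolone therefore did not have the lowest value, so the order of the conditions depended on which regions were taken. Among the prednisolone pairs, those whose GR peak was also listed at 6am (2520 pairs) had a rho of 0.125 and those whose GR peak was not (736 pairs) had -0.103, values of opposite sign.

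The level of the partner changed little across score classes. In quintiles of the GR list from the highest scores to the lowest, the median C/EBPβ score of the partner was 6.07, 6.5, 6.09, 6.25 and 5.46. Of the GR peaks with a partner, 49.2%, 53.2%, 49.8%, 50.6% and 42.6% had one from the highest quintile of the C/EBPβ list. Over all pairs this share was 49.1% (47.4 to 50.8), and 6.51% (5.71 to 7.41) had a partner from the lowest quintile. The lowest GR quintile stood slightly under the others, and the rest did not differ in order. In the other direction, the median GR score of the partner was 3.00, 2.91, 2.85, 2.83 and 2.96 from the highest to the lowest quintile of C/EBPβ.

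**Figure D2:**
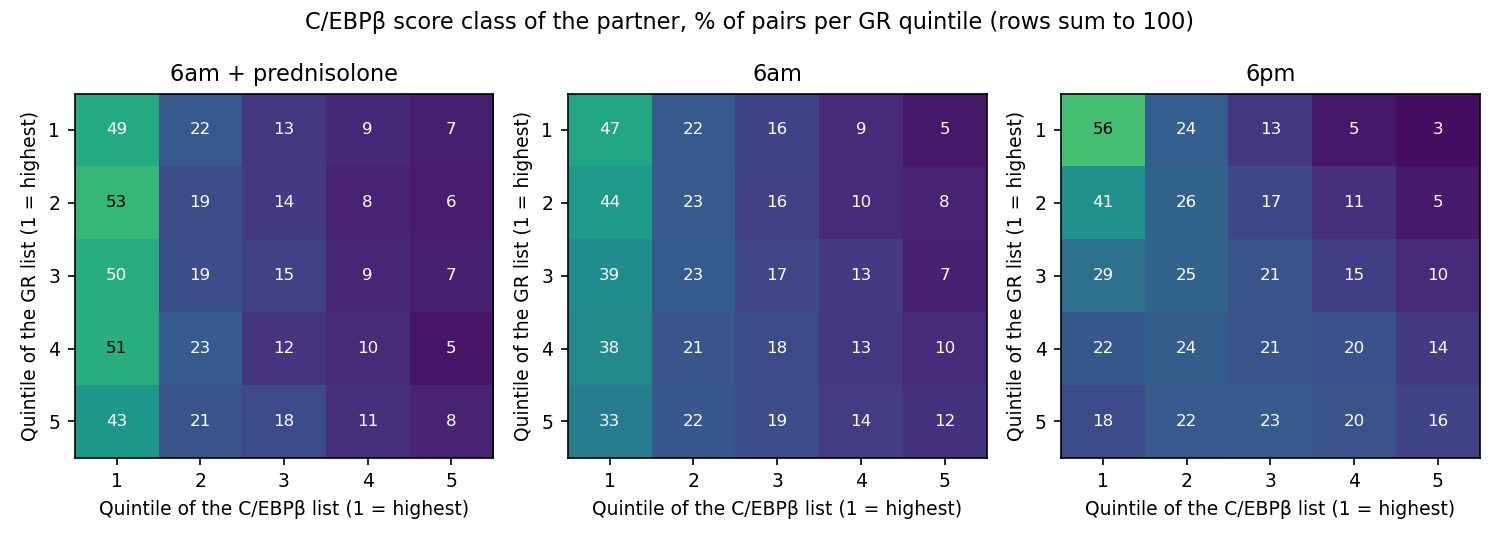
Quintile of the C/EBPβ list to which the partner belongs (x axis) for GR peaks of each quintile of the GR list (y axis), 1 being the highest scores, in WT livers at 6am with prednisolone, at 6am and at 6pm. Numbers and colours give the percent of pairs in each GR quintile. After prednisolone the first column runs from 49.2% in the highest GR quintile to 42.6% in the lowest.

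The share of GR peaks with a partner showed little order by GR score. From the highest to the lowest quintile of GR scores (4.69 to 25.41, 3.30 to 4.69, 2.70 to 3.27, 2.29 to 2.70 and 2.03 to 2.29), 76.3%, 76.9%, 77.4%, 72.6% and 75.1% of the peaks overlapped C/EBPβ. The highest quintile less the lowest was 1.19 points (-2.86 to 5.24), an interval that holds 0 and allows a difference of up to 5.24 points. In the highest 1% of GR peaks 35 of 44 did so (79.5%, 65.5 to 88.8). The median GR score was 2.96 with C/EBPβ and 2.87 without. Between the highest and lowest deciles, a division chosen after seeing the data, the difference was 7.49 points (1.92 to 12.996), so with smaller classes the ends of the list did differ by more than the counting interval. With centres within 100 bp in place of overlap, the quintile difference was -3.45 points (-7.77 to 0.883), of the opposite sign and also with an interval that holds 0. With the C/EBPβ list cut to the length of the GR list by score, it was 5.54 points (1.05 to 9.99), an interval above 0, so the call depends on how many C/EBPβ peaks are counted.

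Untreated livers differed in this. At 6am the share with C/EBPβ was 84.6% in the highest and 72.9% in the lowest GR quintile (11.7 points, 8.38 to 14.98), and at 6pm 94.3% and 70.1% (24.1 points, 22.2 to 25.99). The difference between conditions was itself larger than its counting interval: the prednisolone value less that of 6am was -10.5 points (-15.7 to -5.27) and less that of 6pm -22.9 points (-27.4 to -18.5). At equal list lengths these values were -6.04 (-11.6 to -0.513) and -7.19 points (-12.2 to -2.24). In the full lists the highest quintile carried most of the difference, where prednisolone minus 6am was -8.31 points (-11.9 to -4.82) and prednisolone minus 6pm -17.9 points (-21.0 to -15.1). The lowest quintile was 2.19 points higher than at 6am (-1.70 to 6.02) and 4.97 points higher than at 6pm (1.55 to 8.22). At equal list lengths the order in the lowest quintile was reversed, with 74.7% after prednisolone, 77.0% at 6am and 85.7% at 6pm. The highest quintile then held C/EBPβ at 75.8%, 84.2% and 94.1% of its peaks. The 3 lists differ in length and each was ranked on its own, so a quintile does not hold the same regions in each.

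The quintiles were also compared among GR peaks listed in untreated 6am livers and among those absent there. Among GR peaks also listed at 6am, 78.9% overlapped C/EBPβ, and among those not listed at 6am 66.2% did. The highest quintile less the lowest was -0.270 points (-4.91 to 4.51) in the former and -1.02 points (-10.9 to 7.96) in the latter. Neither group showed a rise with GR score that exceeded its interval.

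For C/EBPβ peaks the share with GR rose steeply with the C/EBPβ score. From the highest quintile (scores of 6.14 to 19.10) to the lowest (2.01 to 2.48), 36.4%, 15.5%, 10.6%, 6.88% and 4.83% overlapped a GR peak, and the highest less the lowest was 31.6 points (30.0 to 33.1). In the highest 1%, 149 of 220 did (67.7%, 61.3 to 73.6). The median C/EBPβ score was 6.03 where GR was listed and 3.41 where it was not. The rise was also present untreated, with 43.2% and 8.78% in the highest and lowest quintiles at 6am and 78.2% and 20.3% at 6pm, where the GR list was 14270 peaks long. Strong C/EBPβ sites were thus more often GR sites, while the quintiles of GR score after prednisolone differed by far less, and beyond the interval only with the shortened C/EBPβ list.

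**Figure D3:**
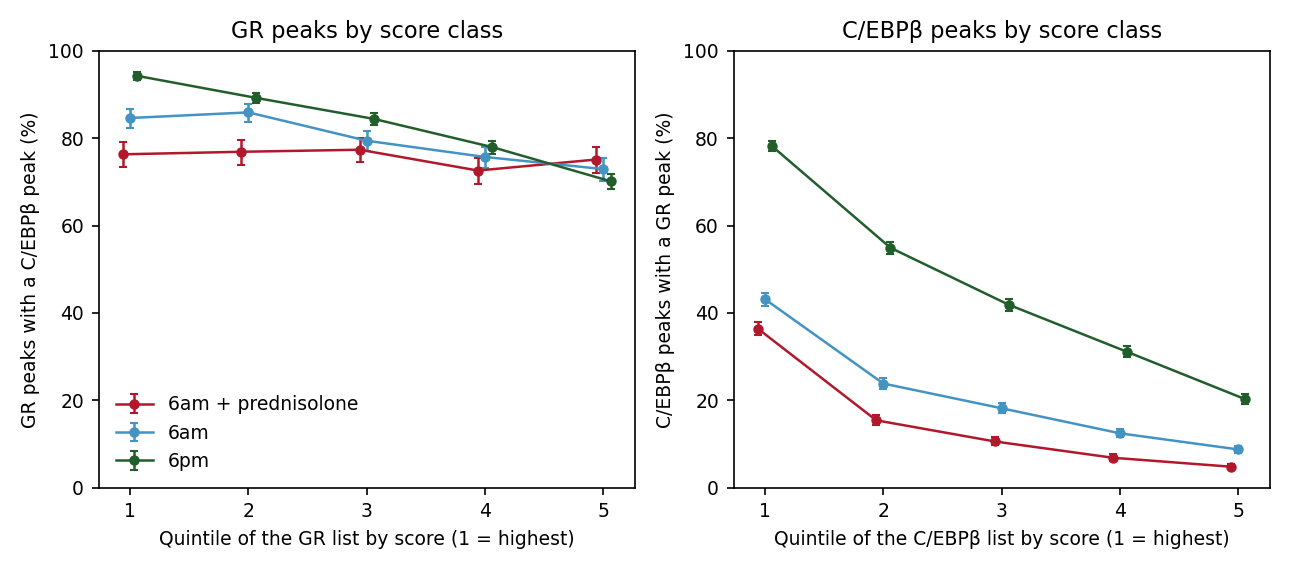
Percent of GR peaks with an overlapping C/EBPβ peak by quintile of the GR list (left), and of C/EBPβ peaks with a GR peak by quintile of the C/EBPβ list (right), quintile 1 being the highest scores, in WT livers of the 3 conditions. Points are shares and bars Wilson 95% intervals. After prednisolone the left curve starts at 76.3% and ends at 75.1%, while the right one falls from 36.4% to 4.83%.

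The strongest C/EBPβ peaks without GR were read in the other lists. The 5 highest lay at chr12:8439757-8439956, at chr9:21639737-21639936, at chr16:33951105-33951304, at chr3:157725186-157725385 and at chr6:49299972-49300171. Their scores were 16.98 to 17.52, and all 5 had a C/EBPβ peak in both untreated lists. The region on chromosome 3 scored 17.13 after prednisolone, 8.20 at 6am and 11.07 at 6pm. Of the 5 regions, 4 overlapped a GR peak of 6pm, with GR scores of 2.41 to 5.44, and the region on chromosome 3 overlapped no GR peak at either time. The shares of all C/EBPβ peaks with such listings are not given here, so neither count is read as particular to these regions. The GR ChIP-exo list after prednisolone had 5, 1, 0, 0 and 2 borders there, and the nearest GR peaks of that condition were centred 4175 to 1623423 bp away.

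Score class and distance were related weakly. The median GR score of pairs was 2.85, 2.93, 2.93, 3.04 and 3.42 for centres 0 to 10, 11 to 25, 26 to 50, 51 to 100 and 101 to 199 bp apart (706, 818, 870, 638 and 224 pairs). The median C/EBPβ score of the same classes was 6.61, 6.18, 6.28, 5.35 and 4.76. Pairs with close centres thus had higher C/EBPβ and lower GR scores than pairs with distant ones. Spearman's rho between the scores was 0.107, 0.0247, 0.0662, 0.138 and 0.232 in these classes, so close centres did not go with more similar ranks.

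The overlap was lower on the X chromosome than on the autosomes. On the autosomes between 68.7% of GR peaks (193 of 281, chromosome 2) and 84.4% (130 of 154, chromosome 14) overlapped C/EBPβ. On the X chromosome, where the list held 33 GR peaks, 15 did (45.5%, 29.8 to 62.0), fewer than on the others (X minus the others -30.4 points, -46.1 to -13.8). At 6am 19 of 30 X peaks did (63.3%, X minus the others -16.5, -34.3 to -1.63) and at 6pm 83 of 111 (74.8%, -8.49, -17.3 to -1.31). On X, prednisolone minus 6am was -17.9 points with an interval that holds 0 (-39.4 to 6.45), and prednisolone minus 6pm was -29.3 points (-46.5 to -10.6). The chromosome was singled out after its values had been seen.

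ChIP-exo borders were then read at the GR peaks. At least 1 border lay within 100 bp of the centre of 95.5% of the GR peaks with C/EBPβ and of 94.3% of those without. Borders of both strands were found at 2559 of 3256 (78.6%) and at 848 of 1048 (80.9%), a difference of -2.32 points (-5.01 to 0.522). Peaks of both kinds had a median of 5 borders, holding a median of 80 tags with C/EBPβ and 104 without. The lower share with C/EBPβ was within its interval here and beyond it under 4 other settings: -3.36 points (-5.89 to -0.710) with centres within 100 bp, -3.06 points (-5.60 to -0.519) within quintiles of GR score, -5.50 points (-8.42 to -2.43) with borders within 60 bp, and -15.5 points (-18.9 to -12.0) with at least 20 tags on each border. In the higher-scoring 50% of each list the difference was within its interval, at -0.808 points (-3.01 to 1.53). Over the whole list, GR peaks with C/EBPβ thus held fewer tags. Their share with borders of both strands was lower by an amount that depended on the setting, and not beyond the interval in each. The highest quintile of GR score did not follow this, with a median of 434 tags with C/EBPβ and 394.5 without. Its difference in borders of both strands was 0.101 points (-1.45 to 2.94).

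The spacing of the borders differed between the groups. The distance was taken from the plus-strand border with the most tags to the minus-strand border with the most tags. In both groups the commonest distances were 11 and 30 bp. Distances of 29 to 31 bp were found at 251 of the 2559 GR peaks with C/EBPβ (9.81%, 8.72 to 11.02) and at 194 of the 848 without (22.9%, 20.2 to 25.8), a difference of -13.1 points (-16.2 to -10.1). Distances of 10 to 12 bp were found at 299 (11.7%, 10.5 to 12.99) and at 164 (19.3%, 16.8 to 22.1), a difference of -7.66 points (-10.7 to -4.82). In comparison, each 3 bp between 40 and 60 bp held on average 2.11% of the peaks with C/EBPβ and 1.60% of those without. The 24 to 26 bp class held 3.56% and 3.07%. The excess of GR peaks without C/EBPβ was therefore in the pair of preferred spacings and not at each distance. The 29 to 31 bp difference rests on taking the strongest borders: with the closest pair of opposite borders in their place it was -0.716 points (-1.98 to 0.226). The 10 to 12 bp difference was then -8.10 points (-10.8 to -5.60). Peaks had a median of 5 borders, so the closest pair can take the place of a wider pair at the same peak. The shares with closest pairs are not given here, so that setting does not tell whether wider pairs were equally frequent in both groups.

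**Figure D4:**
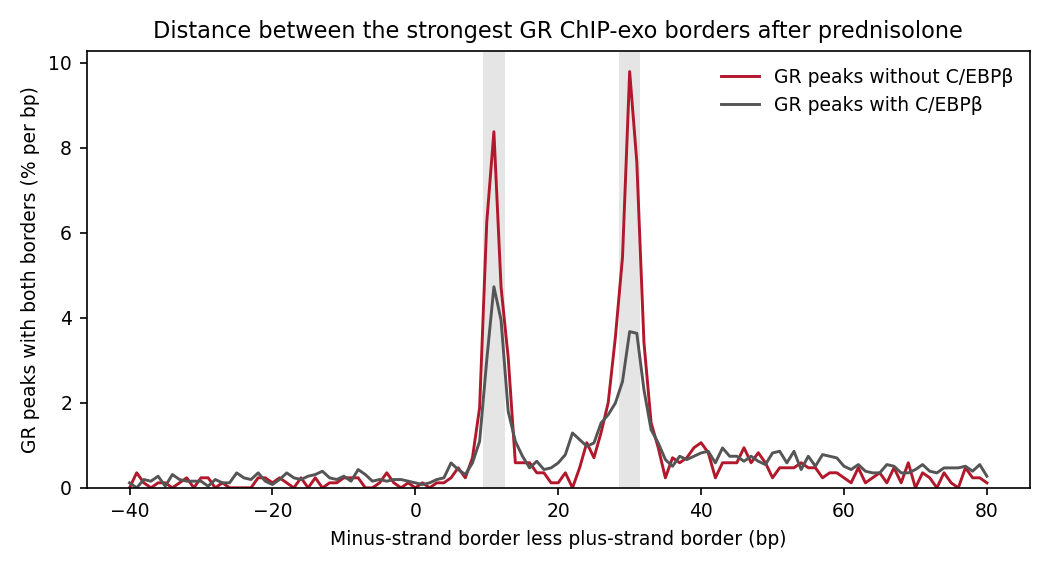
Percent of GR peaks with borders of both strands (y axis, per bp) by the distance of the strongest minus-strand border from the strongest plus-strand border (x axis, -40 to 80 bp), for GR peaks with (grey) and without (red) an overlapping C/EBPβ peak after prednisolone. Shaded bands mark 10 to 12 and 29 to 31 bp. Both curves peak in the bands, and the curve without C/EBPβ is higher there (19.3% against 11.7% and 22.9% against 9.81% summed over the bands).

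Other border arrangements were more frequent with C/EBPβ. The strongest minus-strand border preceded the strongest plus-strand border, an order opposite to that of a single protected stretch, at 15.6% of the GR peaks with C/EBPβ and at 9.43% of those without. The midpoint of the borders lay a median of 16.5 bp from the GR centre with C/EBPβ and 10.0 bp without. Distances of 21 to 25 bp, a class chosen after its values were seen, were found at 134 of 2559 peaks with C/EBPβ (5.24%, 4.44 to 6.17) and at 22 of 848 without (2.59%, 1.72 to 3.90). The C/EBPβ peaks without a GR peak had this spacing at 6.18% (4.94 to 7.70) of the 1181 that held borders of both strands. The background given above is per 3 bp and this class is wider, so these shares are not read as an excess over it. The difference between GR peaks with and without C/EBPβ was 2.64 points (1.11 to 3.92) after prednisolone and 1.61 points (0.107 to 2.85) at 6am. It did not hold throughout: it was -0.768 points (-2.57 to 0.662) at 6pm, 1.35 points (-0.812 to 3.04) at the prednisolone peaks also listed at 6am and -1.15 points (-5.56 to 1.84) at those also listed in GRdim.

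The 29 to 31 bp difference was present in each class of GR score. From the highest to the lowest quintile, 23.3%, 6.5%, 5.84%, 3.33% and 4.46% of the peaks with C/EBPβ had this spacing, against 39.8%, 20.1%, 19.6%, 15.03% and 14.96% of those without. The differences ran from -16.5 points (-24.1 to -9.15) in the highest quintile to -10.5 points (-17.9 to -4.69) in the lowest. Without C/EBPβ the lowest quintile still held a share well above the 3 bp background, while with C/EBPβ the lower 2 quintiles held 3.33% and 4.46%. For 10 to 12 bp the shares were 22.99%, 12.0%, 6.97%, 5.23% and 5.29% with C/EBPβ and 25.9%, 22.3%, 17.2%, 16.2% and 11.8% without. The difference was -2.88 points (-10.0 to 3.64) in the highest quintile, whose interval holds 0, and -6.52 to -10.96 points in the other 4, whose intervals do not.

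**Figure D5:**
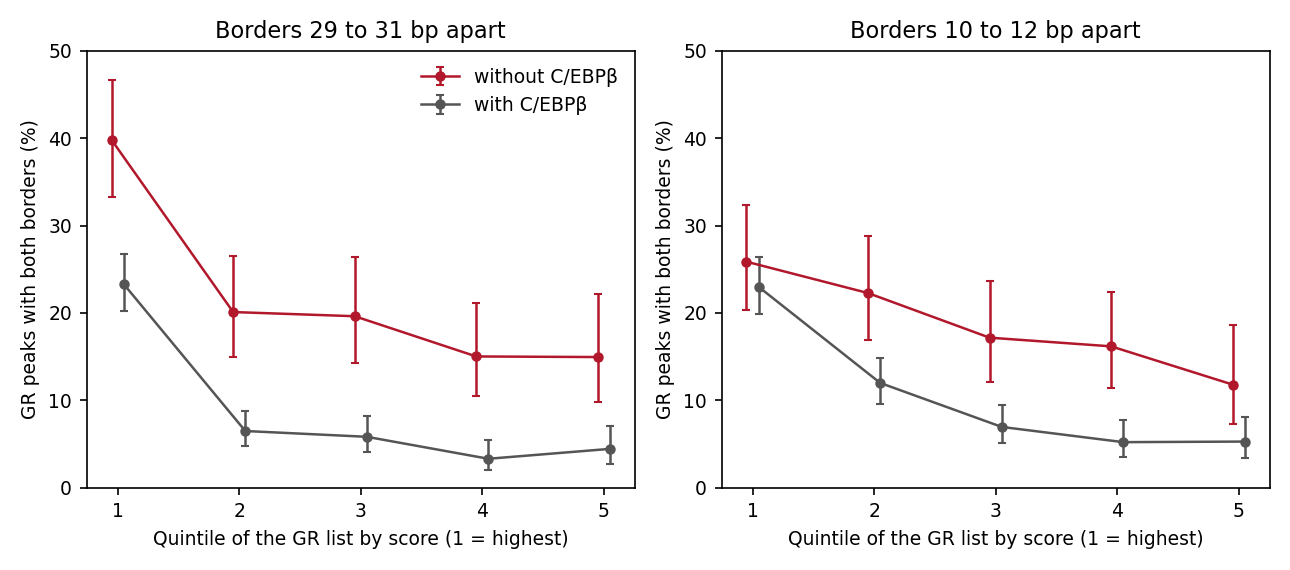
Percent of GR peaks with borders of both strands whose strongest borders are 29 to 31 bp (left) or 10 to 12 bp (right) apart, by quintile of the GR list (1 being the highest scores), with (grey) and without (red) C/EBPβ after prednisolone. Points are shares and bars Wilson 95% intervals. The red points lie above the grey ones throughout the left panel, from 39.8% against 23.3% in quintile 1 to 14.96% against 4.46% in quintile 5.

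The number of tags on the borders moved with these shares, so the comparison was repeated at matched tags. Within quintiles of the GR score the median tags with and without C/EBPβ were 434 and 394.5, 132 and 171, 70 and 102, 48 and 60, and 34 and 39. Peaks were then divided into quintiles by the tags on the weaker of both borders, an alternative chosen after seeing the data. From the fewest tags (5 to 13) to the most (47 to 1254), 2.14%, 4.55%, 3.94%, 11.2% and 30.5% of the peaks with C/EBPβ had the 29 to 31 bp spacing. Without C/EBPβ 4.10%, 4.59%, 14.9%, 25.99% and 45.8% did. The difference was within its interval in the 2 quintiles with the fewest tags and reached -15.3 points (-23.1 to -7.47) in the quintile with the most. Averaged over these quintiles it was -8.61 points (-11.2 to -6.04), against -13.1 unmatched. For 10 to 12 bp the average was -4.25 points (-6.91 to -1.59), and in the quintile with the most tags the shares were 29.7% and 29.2%.

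The spacing also varied with the strength of the C/EBPβ partner. From partners in the highest to those in the lowest quintile of the C/EBPβ list, 6.90%, 11.8%, 12.1%, 14.4% and 14.9% of the GR peaks had borders 29 to 31 bp apart. The lowest quintile less the highest was 8.01 points (3.09 to 14.5), and the lowest quintile was 7.97 points below the peaks with no partner (difference -7.97, -13.5 to -1.10). The median number of tags was 73 to 84 in these 5 classes and did not follow this order. For 10 to 12 bp the shares were 8.76%, 15.2%, 12.6%, 15.6% and 15.5%. For this spacing the lowest quintile less the highest was 6.77 points (1.70 to 13.3), and the lowest quintile less no partner was -3.81 points with an interval that holds 0 (-9.35 to 3.06). GR peaks with weak C/EBPβ partners thus differed from those with strong partners in both spacings, and from those with none in the 29 to 31 bp spacing.

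The spacing was also compared by the distance of the partner. For centres 0 to 10, 11 to 25, 26 to 50, 51 to 100 and 101 to 199 bp apart, 9.02%, 8.75%, 8.43%, 12.2% and 14.3% of the GR peaks had borders 29 to 31 bp apart. The median tags were 69, 79, 77, 86 and 125. The share was thus higher where the partner was distant, and so were the tags, whose part in this was not tested.

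Borders with either preferred spacing mostly lay closer to the GR centre than to the C/EBPβ centre, in part because of how they were searched. Among pairs with centres over 25 bp apart, the midpoint of borders 29 to 31 bp apart was closer to the GR centre in 135 of 146 (92.5%, 87.0 to 95.7), at a median of 9.5 bp from it and 64.5 bp from the C/EBPβ centre. For borders 10 to 12 bp apart this held in 155 of 167 (92.8%, 87.9 to 95.8). For borders at any distance it held in 1110 of 1376 (80.7%, 78.5 to 82.7). For borders 21 to 25 bp apart it held in 38 of 59 (64.4%, 51.7 to 75.4), with medians of 24.5 bp to the GR centre and 40.5 bp to the C/EBPβ centre. GR centres and borders come from the same factor, so a midpoint near the GR centre is not independent of how the centres were found. Borders were also searched only within 100 bp of the GR centre, which favours midpoints near it. The shares of the spacing classes are therefore read only beside the 80.7% for borders at any distance.

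The highest GR peaks without C/EBPβ had borders in or next to the longer spacing. They lay at chr2:163421812-163422011, at chr19:5850174-5850373, at chr4:141484971-141485170, at chr11:68910487-68910686 and at chr16:18083512-18083711. Their GR scores were 18.24, 17.49, 16.59, 16.14 and 16.10, and their strongest borders were 30, 30, 32, 32 and 30 bp apart. They held 1690 to 3009 tags, and each was also a GR peak at 6am, at 6pm and in GRdim after prednisolone. Of all GR peaks without C/EBPβ, 64.2%, 74.8% and 25.9% were found in those lists. Of these 5, 4 overlapped a C/EBPβ peak of 6pm, with C/EBPβ scores of 3.68 to 4.75, and the region on chromosome 11 overlapped C/EBPβ in no condition. The region on chromosome 4 also overlapped a C/EBPβ peak of 6am, with a score of 2.61. The shares of all GR peaks without C/EBPβ that overlapped C/EBPβ at 6am and 6pm are given above. The regions were picked by score, and these counts are not read as particular to them. At the 5 highest GR peaks with C/EBPβ the borders were 34, 11, 11, 31 and 12 bp apart, with 2380 to 5792 tags. By tags on the weaker border, the leading peaks of either group were among these 10 regions, led by chr2:167670164-167670363 with 1254 and 1625 tags on its strongest plus-strand and minus-strand borders.

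The same comparison in the untreated livers went in the same direction with smaller values. At 6am 7.51% of the GR peaks with C/EBPβ and 15.6% of those without had borders 29 to 31 bp apart, and at 6pm 5.37% and 11.7% did. The prednisolone difference less that of 6am was -5.01 points (-8.90 to -1.13), and less that of 6pm -6.74 points (-10.5 to -2.91). Borders of both strands were found at 86.3% and 84.3% of the peaks with and without C/EBPβ at 6am and at 47.7% and 34.6% at 6pm, so the peaks that could be classed differed between conditions. At equal list lengths the differences were -12.8 points after prednisolone, -9.46 at 6am and -7.86 at 6pm. Prednisolone less 6am was then -3.37 points, with an interval that holds 0 (-7.57 to 0.904), and less 6pm -4.97 points (-9.50 to -0.0483). Among GR peaks also listed at 6am the prednisolone difference was -11.5 points (-15.3 to -7.97) and among those not listed then it was -15.7 points (-21.4 to -10.2).

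In GRdim livers after prednisolone the WT regions with and without C/EBPβ did not differ in spacing beyond the counting interval, while they differed in how often they held a border. At the WT GR peaks with C/EBPβ 77.5% held a GRdim border, and at those without 42.1% did (difference 35.5 points, 32.1 to 38.7). At regions also listed as GR peaks in GRdim the shares were 98.0% and 97.8% (0.232 points, -1.18 to 2.82). At regions not listed there they were 51.7% and 22.7% (29.1 points, 25.1 to 32.9). The difference in borders is thus not separate from the difference in GRdim listing given above. Where the GRdim library had borders of both strands, they were 29 to 31 bp apart in 47 of 1887 (2.49%, 1.88 to 3.30) with C/EBPβ and in 6 of 294 (2.04%, 0.939 to 4.38) without. The 10 to 12 bp spacing was found in 5.94% and 6.80%. The differences were 0.450 points (-1.97 to 1.82) and -0.867 points (-4.47 to 1.76). Shares this low left no room for differences as large as those of the WT library, -13.1 and -7.66 points. The GRdim values therefore do not tell whether the groups would differ where the spacings are frequent. In the WT library, regions also listed in GRdim had the 29 to 31 bp spacing at 6.04% with and 11.7% without C/EBPβ (-5.62 points, -10.8 to -1.70), and regions not listed in GRdim at 15.5% and 26.5% (-10.96 points, -15.1 to -6.93). The WT difference was therefore present on both sides of the GRdim listing. The 10 to 12 bp spacing in the WT library was 9.41% and 7.77% at regions listed in GRdim (1.64 points, -3.04 to 4.96) and 15.1% and 23.1% at the others (-7.93 points, -11.9 to -4.05). The GRdim library held 45.2 M tags.

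GR borders were also found at C/EBPβ peaks for which no GR peak was listed. Of these 18685 peaks, 4206 held at least 1 GR border (22.5%, 21.9 to 23.1), against 94.5% of the C/EBPβ peaks that overlapped a GR peak. The share fell with the C/EBPβ score, from 43.6% in the highest quintile through 28.3%, 20.3% and 15.03% to 12.6% in the lowest. Borders of both strands were found at 1181 of them (6.32%). At those, 3.56% had borders 29 to 31 bp apart and 4.06% had borders 10 to 12 bp apart, beside a background of 2.30% per 3 bp. With at least 20 tags required on a border, the share of these peaks with a border was 1.50%, so nearly all of these borders were weak.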

How the data were processed

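Peaks came from 7 deposited ChIP-seq lists and borders from 4 deposited ChIP-exo lists, each 1 pool of 2 replicates per the labels. Per the submitters' processing notes, the build was mm9 and the tools included Bowtie and HOMER. What each tool did, its version and the calling threshold were not given in the sources used here. The ChIP-seq lists hold 200 bp intervals with a score that the authors gave each peak, in an unstated unit. Each ChIP-exo border is a stranded interval of 10 bp with a count of tags and an RPM value made by the authors, per the file headers. The ratio of count to RPM gave the size of each library.

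Peaks were paired where they overlapped by at least 1 bp, and distances are between centres. Quintiles were formed by rank of the score within a list. Of the borders centred within 100 bp of a peak centre, the one with the most tags on each strand was taken, and their distance is the minus-strand position less the plus-strand position. Shares have Wilson intervals at 95%, and differences of shares have Newcombe intervals. Differences between 2 such differences combine the intervals by square-and-add. The regions named are the 5 highest-scoring peaks of each factor with and without the other, the 3 pairs with the largest gap in rank each way, and the 3 GR peaks with the most tags on the weaker of both borders in each group. Members, lists and classes were chosen with earlier results of these data known. The alternatives tried were overlap redefined as centres within 100 bp, each list reduced to its higher-scoring 50%, the C/EBPβ list cut to the length of the GR list, other border windows and minimum tags, the closest opposite borders, and matching by score. Keeping only the nearest C/EBPβ centre of each GR peak was also tried, which could change nothing because the pairs were 1 to 1. Matching by tags, deciles, wider spacing classes, the split by 6am listing and condition comparisons at equal list length were added after seeing the data. The mm9 sequence and annotation were not used here, so regions have no gene name, sequence or exon statement, and the tissue was not checked against marker genes. RNA polymerase II and input samples and GRdim without prednisolone were not analysed here. The code was tested on simulated data. Analyses ran in Python 3.11.15 with pandas 2.3.3, numpy 2.4.6 and scipy 1.17.1, and plots in matplotlib 3.10.9.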

Additional observations from a re-analysis of the deposited data

Results flagged for a closer look

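Several contrasts within a condition differed between prednisolone and the untreated WT livers by more than their counting intervals. With 1 pool per condition, no spread between replicates can be set beside them.

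The highest less the lowest GR quintile, in share with C/EBPβ, differed by -10.5 points (-15.7 to -5.27) from its value at 6am and by -22.9 points (-27.4 to -18.5) from that at 6pm. For C/EBPβ peaks the same contrast in share with GR differed by -2.79 points (-5.09 to -0.481) from 6am and by -26.3 points (-28.5 to -24.1) from 6pm, where the GR list was 14270 peaks long against 4304 after prednisolone.

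The share of GR peaks with borders of both strands, with less without C/EBPβ, differed by -4.36 points (-7.96 to -0.752) from 6am and by -15.4 points (-18.8 to -11.8) from 6pm. For borders 29 to 31 bp apart the difference was -5.01 points from 6am and -6.74 points from 6pm. For borders 10 to 12 bp apart it was -6.36 points (-9.79 to -2.91) from 6pm, and against 6am -3.61 points with an interval that holds 0 (-7.36 to 0.131).

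At equal list lengths, a comparison added after seeing the data, several of these calls were lost or changed. The 29 to 31 bp difference from 6am was -3.37 points (-7.57 to 0.904). For borders of both strands the differences were -3.31 points (-6.80 to 0.102) from 6am and 0.0431 points (-4.18 to 3.89) from 6pm. The C/EBPβ contrast changed sign against 6am, to 3.56 points (1.33 to 5.79), and was -6.19 points (-8.42 to -3.96) from 6pm. The GR contrast and, against 6pm, both spacings remained beyond their intervals, with -4.97 points (-9.50 to -0.0483) for 29 to 31 bp and -4.57 points (-8.55 to -0.180) for 10 to 12 bp.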

How the results depend on the processing

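No paired analysis was possible because each list is 1 pool of 2 replicates, and for the same reason no replicate could be left out. Of 53 alternative values for 10 results, 27 stayed within the counting interval of the reported value. These include the values with only the nearest C/EBPβ centre of each GR peak. They could not change, because the pairs were 1 to 1, and say nothing of stability. The rank correlation changed sign, to -0.0162 when each list was reduced to its higher-scoring 50% and to -0.103 at GR peaks not listed at 6am. It was 0.125 at GR peaks also listed at 6am. With centres within 100 bp, 70.4% of GR and 13.8% of C/EBPβ peaks were shared, and the GR quintiles differed by -3.45 points against 1.19. That contrast was also below 0 at GR peaks listed at 6am (-0.270) and not listed then (-1.02), each with an interval that holds 0. In the higher-scoring 50%, 60.8% and 11.9% were shared, 44.8% of pairs were within 25 bp and 39.6% of C/EBPβ peaks without GR held a border. With a C/EBPβ list as short as that of GR, 36.8% of either was shared, the GR quintiles differed by 5.54 points (1.05 to 9.99) and the 29 to 31 bp difference was -9.86 points. GR peaks listed and not listed at 6am had C/EBPβ at 78.9% and 66.2%. Deciles differed by 7.49 points for GR and 42.8 points for C/EBPβ. Borders of both strands differed by -5.50 points within 60 bp and by -15.5 points with 20 tags. In the higher-scoring 50% of each list they differed by -0.808 points, which was within the interval (-3.01 to 1.53). The closest opposite borders gave -0.716 points at 29 to 31 bp. Matched tags gave -8.61 points at 29 to 31 bp and -4.25 points at 10 to 12 bp. Borders at C/EBPβ peaks without GR were found at 23.3% with centres within 100 bp, 19.2% within 60 bp and 1.50% with 20 tags. The cause of these changes was not tested. The split by 6am, deciles and matched tags were chosen after seeing the data.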
